A study of Arabidopsis thaliana with 4 samples.

Results

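The regions described here are 2947 bins of 200 bp on the chromosome arms of Arabidopsis thaliana that carried both CG and CHG methylation, but little CHH methylation, in the wild-type library. A bin was taken when it lay more than 2 Mb outside the centromere array of its chromosome, when at least 4 cytosines of each context had 4 or more calls in all 4 libraries, and when WT methylation was at least 50% in CG, at least 20% in CHG and under 10% in CHH. The WT levels therefore chose the bins, and WT values below are descriptions that carry no test. The bins were 1.87% of the 157367 arm bins with enough calls and 1.47% of the 200952 such bins in the nuclear genome.

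DNA methylation was measured by enzymatic methyl-seq, in which enzymes protect methylated cytosines and convert the others, so that a cytosine still read as C counts as a methylated call. The DNA came from leaves of Col-0 plants aged 6 weeks, with 1 library for each of 4 genotypes. The quadruple mutant, ccr4a ccr4b ddm1 rdr2, is mutated in all 4 named genes, ddm1 rdr2 and ccr4a ccr4b are mutated in a pair each, and WT is Col-0. The alleles, the number of plants per library and the generations since the mutants were crossed are not given in the sources used here, so that libraries called without a gene product below are libraries of its mutants. With 1 library per genotype, a difference between libraries has no replicate check. Intervals cover counting error only, since the reads were amplified by PCR with no identifier of the source molecule, so that some calls may be copies.

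In plants, CG methylation is copied after replication by the maintenance methyltransferase MET1, CHG methylation is kept by CMT3 in a loop with methylated histone H3 lysine 9, and CHH methylation (H is A, C or T) is kept by CMT2 and by RNA-directed DNA methylation. CG together with CHG methylation is typical of transposons and other repeats, while CG methylation alone is typical of the bodies of expressed genes. DDM1 is a chromatin remodeller that gives methyltransferases access to heterochromatin, RDR2 makes double-stranded RNA for the small interfering RNAs of RNA-directed DNA methylation, and CCR4A and CCR4B are deadenylases that shorten poly(A) tails.

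Stretches of sequence from 5 loci show what the bins contain. They were read on the + strand from the cytosines and trinucleotides listed in the deposited files, on the build of those files, and each is the longest stretch that could be read within its run of bins. Capitals mark the cytosines, on either strand, of CG and CHG sites. The first comes from the longest run of bins and the second from the longest run outside the ends of chromosomes 2 and 4, both with little CG methylation in the libraries without DDM1 and RDR2. The next pair comes from the runs that kept most CG methylation in ddm1 rdr2, and the last comes from a bin that carried methylation in ddm1 rdr2 and WT only.
chr2:125962-126006: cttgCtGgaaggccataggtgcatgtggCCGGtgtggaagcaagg
chr3:18519536-18519578: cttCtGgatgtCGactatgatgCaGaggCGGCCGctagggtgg
chr4:13476359-13476381: CaGCGGtggagctcaatgcctag
chr5:1326492-1326513: CaGaagcttcacctCGtggttg
chr3:18051401-18051424: aCGacttcaaaagctctCGtctag

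The CG sites of the chromosome 3 stretch from the long run were methylated in 1.52% of calls in the quadruple mutant, 2.41% in ddm1 rdr2, 76.5% in ccr4a ccr4b and 80.7% in WT. The chromosome 4 stretch had CG levels of 93.1% in the quadruple mutant, 93.7% in ddm1 rdr2, 95.2% in ccr4a ccr4b and 92.2% in WT. At the last stretch, 0% of 53 CG calls were methylated in the quadruple mutant and 0% of 38 in ccr4a ccr4b, against 91.1% of 56 in ddm1 rdr2 and 94.4% of 71 in WT. The first pair of outcomes, loss and persistence without DDM1 and RDR2, recurs in the results that follow. The last, with CG under 10% in both libraries lacking CCR4A and CCR4B and at least 50% in ddm1 rdr2, was seen in 1 bin. No gene annotation of this build was at hand, so which genes or transposons the bins overlap is not analysed here.

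Nuclear calls numbered 785451909 in the quadruple mutant, 745511802 in ddm1 rdr2, 574097022 in ccr4a ccr4b and 774313581 in WT. The median bin held 2239, 2055, 1558 and 2660 calls in the same order, and the thinnest bin held 65 calls, in ccr4a ccr4b. Chloroplast DNA, which is unmethylated, read as methylated in 0.0861% to 0.108% of CG calls, 0.0918% to 0.111% of CHG calls and 0.0737% to 0.102% of CHH calls. A false methylated call was thus rare against the levels below. A level is the methylated share of the calls of a bin, and a mean level counts each bin once.

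The bins were found on all 5 chromosomes and in nearly every megabase of the arms. Chromosome 1 held 475 bins, chromosome 2 held 855, chromosome 3 held 602, chromosome 4 held 583 and chromosome 5 held 432. Relative to the arm bins with enough calls, the share was highest on chromosome 2, at 3.48%, and lowest on chromosome 1, at 1.16%. Of 105 megabases with at least 200 such bins, 3 held no member, and the median share was 0.757%. A dense group lay at the start of chromosome 2, where the first megabase held 295 bins, and 300 bins in all lay in the first 200 kb of chromosome 2 or the first 100 kb of chromosome 4. These 300 end bins were rich in GC and in CG sites and were read more deeply than the others, so mean levels are also given without them, for the remaining 2647 bins.

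Bins that touched or had 1 other bin between them were joined into 1624 runs, of which 979 were single bins and 89 held 5 or more. The longest run, chr2:123001-128000, held 21 bins. The bins had a median GC content of 43%, against 42.5% over all arm bins with enough calls, and they listed a median of 16 CG cytosines, against 12, and 13 CHG cytosines, against 15. Outside the ends, CG cytosines numbered 14. Both measures say that base composition was close to that of the arms at large, with somewhat more CG sites.

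CG methylation of the bins was high in the libraries with DDM1 and RDR2 and low in the libraries without them. Mean CG levels were 25.9% ± 22.0 in the quadruple mutant, 24.4% ± 21.4 in ddm1 rdr2, 79.6% ± 12.9 in ccr4a ccr4b and 81.8% ± 7.28 in WT (SD over 2947 bins, 1 library each). The SD shows that bins differed more from each other without DDM1 and RDR2 than with them. In ddm1 rdr2 the middle 50% of bins ran from 7.08% to 37.0%, and the median bin held 355 CG calls there.

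CHG methylation was lower in the same libraries. Mean CHG levels were 13.7% ± 16.9 in the quadruple mutant, 13.5% ± 16.9 in ddm1 rdr2, 37.1% ± 16.2 in ccr4a ccr4b and 37.0% ± 11.7 in WT. Mean CHH levels were 2.58% ± 3.67 in the quadruple mutant, 2.84% ± 4.20 in ddm1 rdr2, 5.81% ± 3.86 in ccr4a ccr4b and 6.82% ± 2.29 in WT. The mean level left in ddm1 rdr2 was 29.8% of the WT mean in CG, 36.5% in CHG and 41.7% in CHH, so the loss was largest, in relative terms, in CG. The CHH loss depended on the choice of bins: with stricter WT thresholds the mean CHH difference of ddm1 rdr2 from WT was 0.154 points, against -3.98 as chosen here. Outside the chromosome ends, mean CG was 28.4% in the quadruple mutant, 26.8% in ddm1 rdr2, 80.0% in ccr4a ccr4b and 82.4% in WT.

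**Figure D1:**
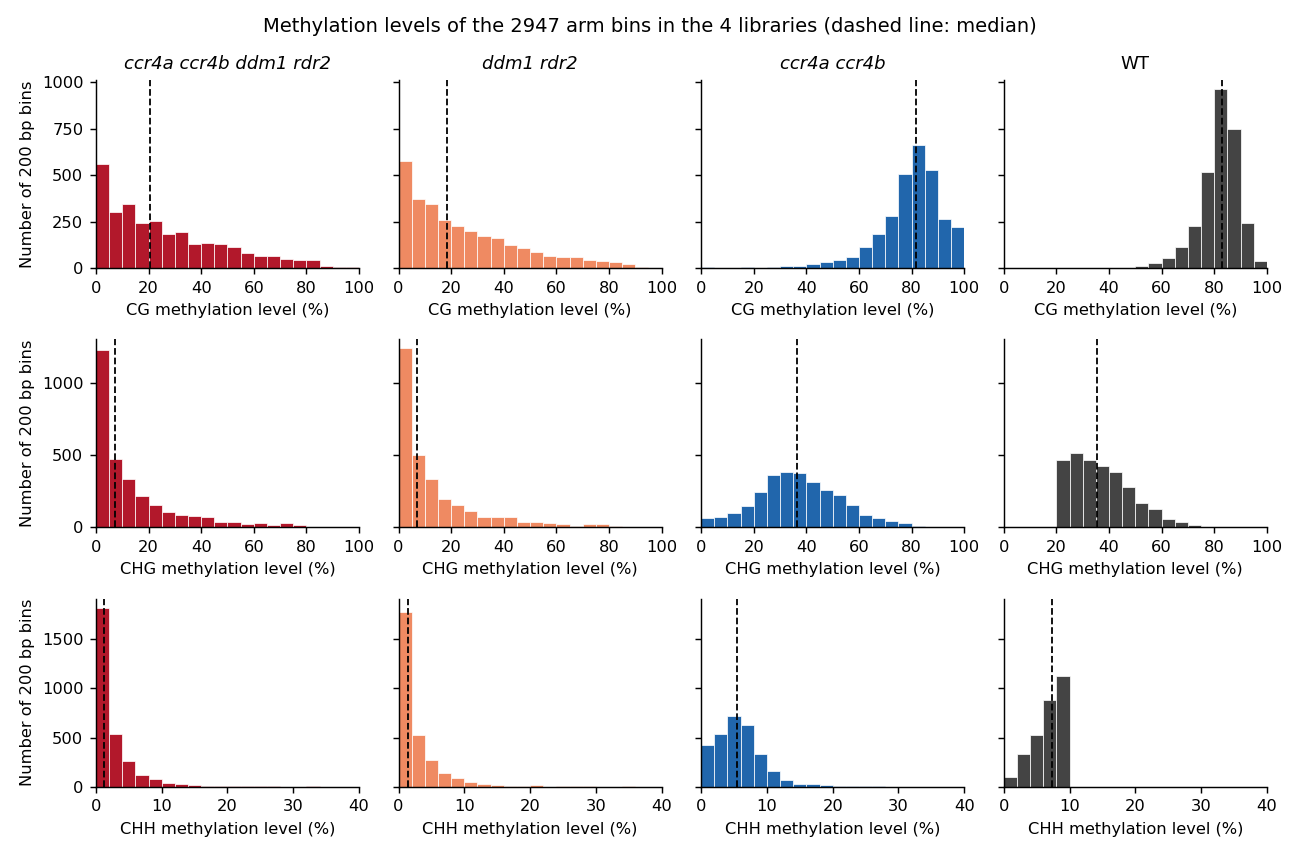
Histograms of the methylation level of the 2947 bins (x axis, %) in CG, CHG and CHH (rows) for the 4 libraries (columns), with the number of bins on the y axis and a dashed line at the median. CG medians lie at 20.4% in the quadruple mutant (ccr4a ccr4b ddm1 rdr2 in the plot) and 18.4% in ddm1 rdr2, and at 81.7% in ccr4a ccr4b and 82.9% in WT, whose histograms are cut off at the thresholds that chose the bins.

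Sorting the bins by level showed a gradient rather than a uniform loss. In CG, 476 bins in the quadruple mutant and 405 in ddm1 rdr2 stayed at 50% or more, against 2851 in ccr4a ccr4b. Under 10% CG were 862 bins in the quadruple mutant and 948 in ddm1 rdr2, of which 287 were end bins, against 8 in ccr4a ccr4b. Most bins of the libraries without DDM1 and RDR2, 1609 and 1594 in the same order, held intermediate CG levels from 10% to 50%. In CHG, 692 bins in the quadruple mutant and 675 in ddm1 rdr2 stayed at 20% or more, against 2560 in ccr4a ccr4b.

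The bins that kept methylation were largely shared by the libraries without DDM1 and RDR2. Of the bins with at least 50% CG, 331 were common to both, which was 69.5% of those in the quadruple mutant and 81.7% of those in ddm1 rdr2. Of the bins with at least 20% CHG, 521 were common, or 75.3% and 77.2%. Over all 2947 bins the CG levels of the 2 libraries had a Pearson correlation of 0.900 and a Spearman correlation of 0.900, and the CHG levels of 0.877 and 0.814. The bins within a run share their source, and both libraries were read at the same cytosines, so these correlations are descriptions.

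In CG, single cytosines showed the same gradient. At 35358 CG cytosines of the bins with at least 10 calls in every library, 47.0% were under 10% methylated in the quadruple mutant and 48.7% in ddm1 rdr2, against 0.956% in ccr4a ccr4b and 0.436% in WT. At least 50% methylated were 18.3% of them in the quadruple mutant, 15.9% in ddm1 rdr2, 95.03% in ccr4a ccr4b and 98.1% in WT. Outside the chromosome ends, 37.3% of 28890 cytosines were under 10% in the quadruple mutant and 38.9% in ddm1 rdr2. At 50% or more there were 22.3% and 19.4% of them, so 10% to 50% was the largest class, at 40.4% and 41.7%. The 2 strands of a CG site kept or lost methylation together. Over 15312 sites the levels of the + and − strand correlated with a Pearson r of 0.931 in the quadruple mutant, 0.920 in ddm1 rdr2, 0.288 in ccr4a ccr4b and 0.499 in WT, where levels vary little. Sites at 50% or more on 1 strand with the other strand under 10% made up 0.0131% in the quadruple mutant and 0.0457% in ddm1 rdr2. Over the 12605 sites outside the chromosome ends, r was 0.922 in the quadruple mutant and 0.910 in ddm1 rdr2.

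Most bins that kept at least 50% CG also kept at least 20% CHG, while many bins that kept CHG did not keep CG. In the quadruple mutant, 346 bins had both at least 50% CG and at least 20% CHG, 38 had at least 50% CG with under 5% CHG, and another 346 had at least 20% CHG with under 50% CG. In ddm1 rdr2 the numbers were 322, 27 and 353. Over bins, CG and CHG had a Pearson correlation of 0.697 in the quadruple mutant and 0.721 in ddm1 rdr2, values that share the library and the depth of a bin. A level of CHG above that of CG, which was rare with DDM1 and RDR2, was also found, in 440 bins of the quadruple mutant and 461 of ddm1 rdr2, against 31 of ccr4a ccr4b and 3 of WT. The rule of at least 50% CG keeps the WT count low. In ddm1 rdr2, 514 bins were under 5% in both contexts, where few calls decide which level is higher.

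**Figure D2:**
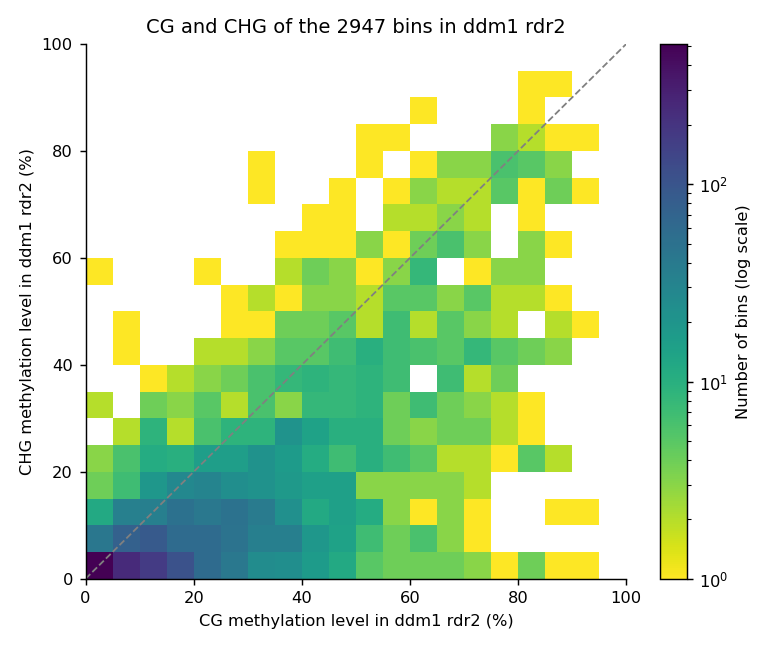
Number of bins (colour, log scale) by CG level (x axis, %) and CHG level (y axis, %) in ddm1 rdr2, with a dashed line of equal levels. Most bins lie near the origin, a tail reaches high levels in both contexts, and 461 bins lie above the line.

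Among CHG trinucleotides, CCG was the least methylated and also kept the smallest share. Cytosines of CAG averaged 15.5% in the quadruple mutant, 15.1% in ddm1 rdr2, 41.9% in ccr4a ccr4b and 40.6% in WT, and those of CTG averaged 15.7%, 15.0%, 41.8% and 41.0% in the same order. Cytosines of CCG averaged 8.43% in the quadruple mutant, 8.08% in ddm1 rdr2, 28.3% in ccr4a ccr4b and 28.8% in WT. The level left in ddm1 rdr2 was 37.1% of WT at CAG, 36.7% at CTG and 28.1% at CCG, and without the chromosome ends it was 39.8%, 39.4% and 32.9%. Among CHH trinucleotides, CAA and CTA, the sites preferred by CMT2, stood out in every library. CAA averaged 7.54% in the quadruple mutant, 7.97% in ddm1 rdr2, 16.7% in ccr4a ccr4b and 19.8% in WT, while CCC averaged 0.221%, 0.346%, 0.957% and 0.931% in the same order.

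CG retention was higher farther from the centromere array, although WT CG was not. Outside the chromosome ends, 1692 bins lay 2 to 4 Mb from the array, 599 lay 4 to 8 Mb away and 356 lay farther, which was 5.91%, 1.24% and 0.447% of the arm bins with enough calls. In order of distance, mean CG was 23.7%, 33.4% and 42.7% in the quadruple mutant and 22.6%, 30.8% and 40.2% in ddm1 rdr2. In ccr4a ccr4b it was 80.4%, 79.7% and 78.5%, and in WT 82.4%, 82.3% and 82.3%. CG thus increased with distance in the 2 libraries without DDM1 and RDR2 and not in the 2 libraries with them.

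CHG followed the same order without DDM1 and RDR2, with 11.4%, 18.0% and 27.5% in the quadruple mutant and 11.4%, 17.3% and 26.9% in ddm1 rdr2, against 37.6%, 37.5% and 37.8% in ccr4a ccr4b and 36.6%, 38.4% and 40.7% in WT. CHH in ddm1 rdr2 was 2.43%, 3.37% and 5.48%. Bins with at least 50% CG made up 9.46%, 20.03% and 34.8% in ddm1 rdr2. On each of the 8 arms that had bins in all 3 classes, mean CG beyond 8 Mb was above that at 2 to 4 Mb in both the quadruple mutant and ddm1 rdr2, with as few as 19 bins in the far class of 1 arm. The steps were not even on every arm. On the right arm of chromosome 1, ddm1 rdr2 had 31.5%, 28.1% and 38.6% CG. The median calls per bin in ddm1 rdr2 were 1845, 1942 and 2200.5 in order of distance, and the part of depth in the gradient was not tested.

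**Figure D3:**
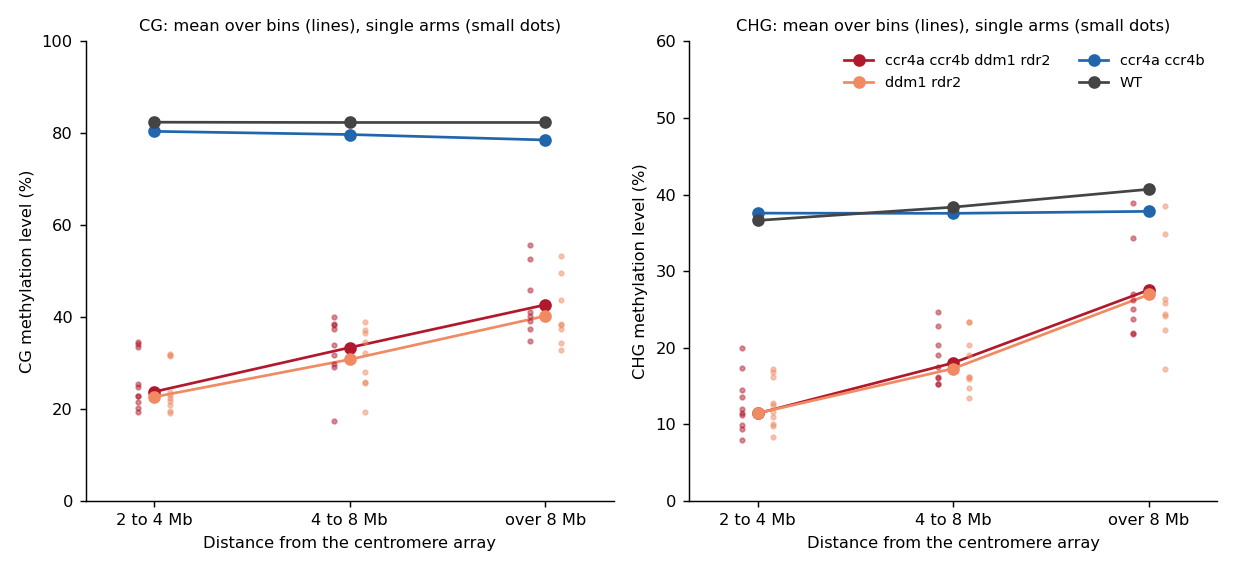
Mean CG (left) and CHG (right) methylation level of the bins outside the chromosome ends (y axis, %) by distance from the centromere array (x axis), with lines for the 4 libraries and small dots for single chromosome arms in the quadruple mutant (ccr4a ccr4b ddm1 rdr2 in the plot) and ddm1 rdr2. From the nearest to the farthest class, ddm1 rdr2 averages 22.6%, 30.8% and 40.2% CG, while WT stays at 82.3% to 82.4%.

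For comparison, arm bins with CG methylation alone in WT (27340 bins with CHG under 5%) had flat means of 58.5%, 58.8% and 58.6% CG in ddm1 rdr2 over the same distances. Arm bins rich in CHH in WT (10882 bins at 10% or more, with the same CG and CHG thresholds) had 18.1%, 23.3% and 31.5%. Within 2 Mb of the arrays, 10244 pericentromeric bins that met the same WT thresholds averaged 12.5% CG in the quadruple mutant, 12.2% in ddm1 rdr2, 79.4% in ccr4a ccr4b and 81.2% in WT. The arm bins described here thus had 24.4% CG in ddm1 rdr2, against 12.2% in these pericentromeric bins, from like WT levels. These sets are given side by side, and no test between sets was made.

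The surroundings of a bin went with its retention as well. Among bins outside the chromosome ends, 1177 had usable neighbours within 2 kb that averaged at least 20% CHG in WT, and these bins averaged 20.3% CG in the quadruple mutant and 19.5% in ddm1 rdr2. A further 504 bins had neighbours with at least 20% CG but less CHG, and averaged 35.3% in the quadruple mutant and 33.2% in ddm1 rdr2. The 257 bins whose neighbours held little methylation averaged 45.6% in the quadruple mutant and 44.0% in ddm1 rdr2. WT CG was 82.0%, 81.6% and 82.6% in these classes, so it did not follow the order. Another 709 bins had under 3 usable neighbours and were left out of these classes. They averaged 30.8% CG in the quadruple mutant and 28.2% in ddm1 rdr2.

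At 2 to 4 Mb from the array alone, the 3 classes had 17.6%, 28.9% and 42.7% CG in ddm1 rdr2, and at 4 to 8 Mb 22.4%, 33.8% and 45.8%. Beyond 8 Mb they had 34.4%, 43.7% and 43.1%, so that the last step was absent there. Single bins and long runs differed in the same sense: bins alone in their run averaged 30.4% CG in ddm1 rdr2, and bins in runs of 5 or more averaged 18.9%. Depth moved with both measures, since the median bin held 1304 calls in ddm1 rdr2 when alone and 3277 in runs of 5 or more, and 2259, 2195.5 and 1577 in the 3 classes of neighbours. The part of depth was not tested. Member bins were left out of the neighbours, so the WT thresholds that chose the bins also shaped the classes.

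**Figure D4:**
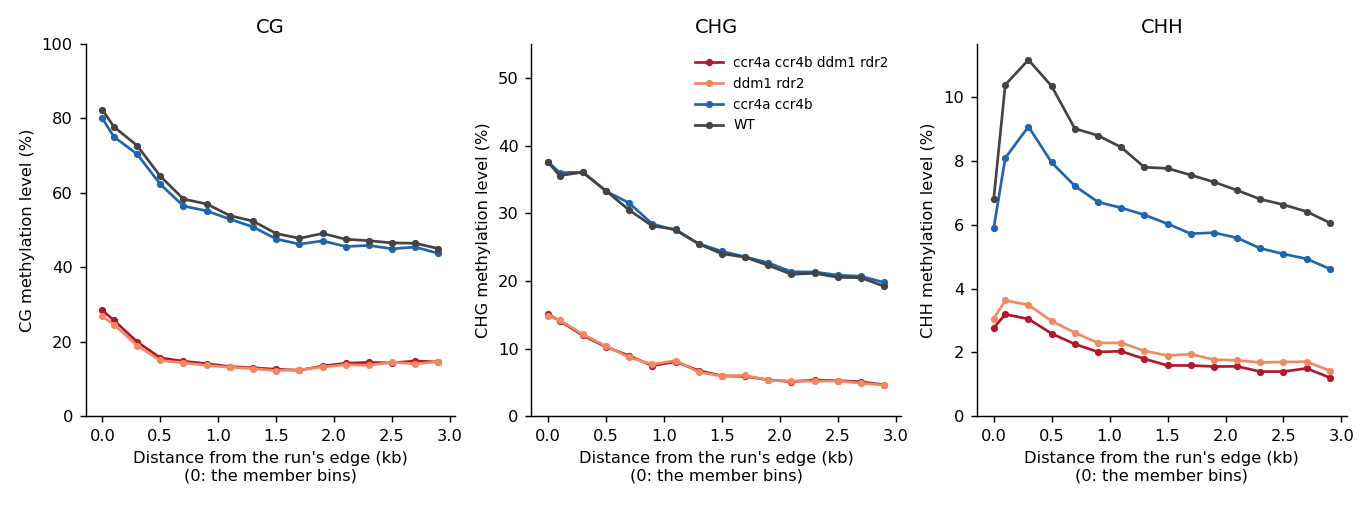
Mean CG, CHG and CHH methylation level (y axes, %) in the bins outside the chromosome ends (distance 0) and in other usable bins by distance from the edge of a run (x axis, kb), for the 4 libraries. In ddm1 rdr2, CG is 26.8% in the bins and 15.0% at 0.5 kb, and in WT 82.4% and 64.5%.

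CG outside the runs was lower than in them. In ddm1 rdr2, CG was 26.8% in the bins, 24.6% in bins centred 100 bp from the edge of a run, 15.0% at 500 bp and 12.3% at 1500 bp. In WT it was 82.4%, 77.8%, 64.5% and 49.1% at the same places. Farther out the libraries differed: at 2900 bp CG was 14.6% in the quadruple mutant and 14.7% in ddm1 rdr2, above the 12.6% and 12.3% at 1500 bp, while in WT it was 45.03%. WT CHH ran the other way at first, with 6.80% in the bins and 11.2% at 300 bp, where the rule no longer held CHH under 10%. The bins with low WT CHH had more CG in ddm1 rdr2: those with under 4% CHH in WT averaged 35.4% CG in ddm1 rdr2, those with 4% to 7% averaged 29.0%, and those with 7% to 10% averaged 23.2%. Median distance from the array moved with this order, at 3.86, 3.21 and 2.89 Mb, as did median depth in ddm1 rdr2, at 1542, 1799 and 2145 calls, and their part was not tested.

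The 300 bins of the chromosome ends had almost no methylation without DDM1 and RDR2. Their mean CG was 3.41% in the quadruple mutant, 3.24% in ddm1 rdr2, 76.1% in ccr4a ccr4b and 77.0% in WT, and 287 of them were under 10% in ddm1 rdr2. Mean CHG was 1.73% in the quadruple mutant, 1.62% in ddm1 rdr2, 32.8% in ccr4a ccr4b and 31.7% in WT. Their median depth was 4377 calls in the quadruple mutant, 5453.5 in ddm1 rdr2, 9909 in ccr4a ccr4b and 5877.5 in WT, against 2129, 1908, 1364 and 2478 in the other bins. Whether these bins are copies of 1 repeat onto which reads of several copies were aligned is not analysed here.

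The longest run, chr2:123001-128000 in the chromosome 2 end, had 0.492% CG in the quadruple mutant, 0.805% in ddm1 rdr2, 78.9% in ccr4a ccr4b and 77.5% in WT over its 21 bins. The second, chr2:141001-144600 with 16 bins, had 3.34%, 2.56%, 78.2% and 80.2% in the same order. Outside the ends the longest was chr3:18519201-18523000 with 14 bins, at 11.0% in the quadruple mutant, 9.09% in ddm1 rdr2, 80.7% in ccr4a ccr4b and 83.3% in WT. In ddm1 rdr2 the first and second lay below the lower quartile of the bins, 7.08%, and the third lay between that quartile and the median of 18.4%.

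The opposite extreme was the run of 3 bins at chr4:13476001-13476800, whose CG was 91.8% in the quadruple mutant, 88.8% in ddm1 rdr2, 88.4% in ccr4a ccr4b and 89.9% in WT. Its CHG was above WT without DDM1 and RDR2, at 72.8% in the quadruple mutant, 74.5% in ddm1 rdr2, 39.8% in ccr4a ccr4b and 50.4% in WT. Its CHH was 16.5%, 18.5%, 8.20% and 8.60% in the same order. The run of 3 bins at chr5:1326001-1326600 behaved alike, with 82.6% CG in the quadruple mutant, 85.2% in ddm1 rdr2, 90.02% in ccr4a ccr4b and 89.5% in WT, and with CHG of 64.0%, 71.2%, 41.1% and 45.3%. At these runs CG persisted and CHG was higher than in either library that has DDM1 and RDR2.

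Such gains were found in 61 bins in 48 runs, where CHG was at least 20 points above WT in ddm1 rdr2, by size alone, or 2.07% of the bins, against 0.179% of the 240235 nuclear bins compared. Since ddm1 rdr2 and WT chose these bins, only the other 2 libraries are informative. CHG in them averaged 57.8% ± 23.5 in the quadruple mutant and 35.9% ± 19.5 in ccr4a ccr4b (SD over bins), and it was higher in the quadruple mutant in 50 of the 61. CHH averaged 11.8% ± 7.79 in the quadruple mutant and 5.13% ± 4.41 in ccr4a ccr4b. In 56 bins CHH was at least 10 points above WT in ddm1 rdr2, against 0.722% of nuclear bins, and these averaged 17.1% CHH in the quadruple mutant and 5.53% in ccr4a ccr4b. A second library without DDM1 and RDR2 thus had high CHG and CHH at places chosen without it.

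Setting the quadruple mutant against ccr4a ccr4b asks what loss of DDM1 and RDR2 changes where CCR4A and CCR4B are already lost. A bin was called where a two-sided Fisher's exact test of its summed calls had an adjusted p (Benjamini-Hochberg over all nuclear bins tested) under 0.01 and the level differed by at least 40 points in CG, 20 in CHG or 10 in CHH. The test compares 2 libraries, not genotypes. CG fell in 2216 bins, or 75.2% of the members, against 25% of the nuclear bins tested, and rose in 5, against 0.517%. CHG fell in 1851 bins, or 62.8%, against 20%, and rose in 82, against 0.215%. CHH fell in 159 bins, or 5.40%, against 6.97%, and rose in 47, against 0.511%.

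Mean differences in this comparison were -53.7 points in CG, -23.4 in CHG and -3.23 in CHH, and all 3 were negative on 5 of 5 chromosomes. The bins were chosen for high CG and CHG in WT, and bins low in WT cannot lose, so the rule itself raises the share above the nuclear background. Among sets chosen by WT alone, CG fell in 93.3% of the pericentromeric bins of the same thresholds, in 81.6% of the arm bins rich in CHH and in 4.54% of the arm bins with CG alone. In the comparison of ddm1 rdr2 with WT, by size alone, CG was lower by 40 points or more in 2408 bins, or 81.7%, against 26.3% of nuclear bins, and higher by as much in 0, against 0.356%. CHG was lower by 20 points or more in 2000 bins, or 67.9%, against 20.4%. CHH cannot be 10 points lower in bins that WT kept under 10%, so that 0 bins met that size, against 10.9%.

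The comparison of the quadruple mutant with ddm1 rdr2 asks what loss of CCR4A and CCR4B changes where DDM1 and RDR2 are lost. Mean CG was higher by 1.48 points in the quadruple mutant, at 25.9% against 24.4% in ddm1 rdr2, a sign shared by 5 of 5 chromosomes, with differences from 0.778 to 2.50. CG was higher in the quadruple mutant in 1692 bins and lower in 1233, with an SD of the difference over bins of 9.73 points. Summed over all bins, the difference was 1.15 points (Newcombe 95% interval 1.09 to 1.22). Outside the chromosome ends the summed difference was 1.97 points (1.87 to 2.07), while the end bins summed to 2.47% in the quadruple mutant and 3.08% in ddm1 rdr2, the opposite sign. Only the 46 end bins of chromosome 4 had that sign, at 2.16% and 3.45%. The 254 of chromosome 2 summed to 2.82% and 2.74%, and the mean over all 300 end bins was 3.41% and 3.24%. The difference of 1.48 points over all bins is small beside the spread over bins. No second library of either genotype shows how far 2 libraries of 1 genotype would differ.

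It was 1.12 points at 2 to 4 Mb from the array, 2.59 at 4 to 8 Mb and 2.44 farther out, outside the chromosome ends. CG-only arm bins differed by 1.73 points in the same comparison and CHH-rich arm bins by 0.472. Mean CHG differed by 0.218 points, with 4 of 5 chromosomes positive, and mean CHH by -0.265 points, with 0 of 5 positive. The sign of the CHG difference depended on the choice of bins: it was -0.365 points with stricter WT thresholds and -0.184 without highly covered cytosines.

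In the same comparison, few single bins were called in the quadruple mutant against ddm1 rdr2. By Fisher's exact test and size, CG rose in 0 bins (also 0 with at least 10 calls per cytosine, and 1 without highly covered cytosines), against 0.264% of the nuclear bins tested, and fell in 12 bins in 11 runs, or 0.407%, against 0.298%. CHG rose in 34 bins, or 1.15%, against 0.265%, and fell in 40, or 1.36%, against 0.469%. CHH rose in 2 bins, or 0.0679%, against 0.131%, and fell in 16, or 0.543%, against 0.847%. The share of bins with lower CG was close to the nuclear background, while CHG shares were above it in both directions. With at least 10 calls per cytosine, lower CG was called in 5 bins, higher CHG in 27 and lower CHG in 14, higher CHH in 0 and lower CHH in 3. The nuclear share was not computed at that setting, so these counts cannot be set against a background. CHG was called higher in 1.19% and lower in 1.79% of the CHH-rich arm bins, which met the same WT CHG threshold. It was called higher in 0.488% and lower in 0.586% of the pericentromeric bins, which met the same WT thresholds in every context. The part of the WT CHG level in these shares was not tested.

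Of the 12 bins called lower in CG, 4 lay in a block on chromosome 5, chr5:16615801-16620800. At chr5:16620401-16620600, CG was 4.98% in the quadruple mutant, 72.0% in ddm1 rdr2, 97.0% in ccr4a ccr4b and 85.0% in WT, and CG fell in the quadruple mutant relative to ddm1 rdr2 (Fisher's exact test, adjusted p = 2.91e-129). CHG there was 3.86%, 76.9%, 44.2% and 40.6% in the same order, and CHH was 1.20%, 34.6%, 11.8% and 8.37%. The calls aligned to this bin in ddm1 rdr2 were thus high in CG and higher in CHG and CHH than in WT. In the quadruple mutant they were low in all 3 contexts. Depth differed too, with 402 CG calls in the quadruple mutant, 1069 in ddm1 rdr2, 232 in ccr4a ccr4b and 561 in WT. A readable stretch of the bin has the sequence that follows, with 0% of 42 CG calls methylated in the quadruple mutant and 75% of 108 in ddm1 rdr2.
chr5:16620433-16620453: cattgagagccataCGcaCtG

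Over the 4 member bins of the block, CG was 6.17% (Wilson 95% interval 4.58 to 8.27) in the quadruple mutant, 73.0% (70.9 to 75.1) in ddm1 rdr2, 92.9% (90.1 to 95.01) in ccr4a ccr4b and 83.2% (80.7 to 85.5) in WT. The block was not read throughout: no cytosine of chr5:16617801-16618600 had 4 or more calls in all 4 libraries, and some further bins had no usable CG. Over the usable calls of all 25 bins of the block, which was delimited after its values were seen, CG was 5.28% in the quadruple mutant, 68.5% in ddm1 rdr2, 82.6% in ccr4a ccr4b and 81.4% in WT. CHG was 10.2%, 80.8%, 48.3% and 48.0%, and CHH was 2.95%, 35.2%, 11.4% and 14.4%. The block held 2139 CG calls in the quadruple mutant, 4393 in ddm1 rdr2, 1164 in ccr4a ccr4b and 2548 in WT. Over the nuclear genome, ddm1 rdr2 had fewer calls than the quadruple mutant, at 745511802 against 785451909. Bins called lower in CG between the 2 libraries without DDM1 and RDR2 set the bounds of the block. The difference between these libraries within it is therefore a description. The difference went on past the stated end, since the 2 bins of chr5:16621201-16621600, which are not members, had 8.92% and 8.15% CG in the quadruple mutant and 83.1% and 75.9% in ddm1 rdr2. The next member bins, at chr5:16622001-16622400, went the other way, with 20.8% and 14.7% CG in the quadruple mutant and 0% and 0% in ddm1 rdr2. They held 509 and 292 CG calls in the quadruple mutant and 542 and 241 in ddm1 rdr2. The bins of chr5:16621201-16621600 held 583 and 270 in the quadruple mutant and 1045 and 597 in ddm1 rdr2. Whether reads of further copies of the sequence were aligned to the block was not tested. With 1 library each, a difference between the plants sampled cannot be told apart from one between genotypes.

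**Figure D5:**
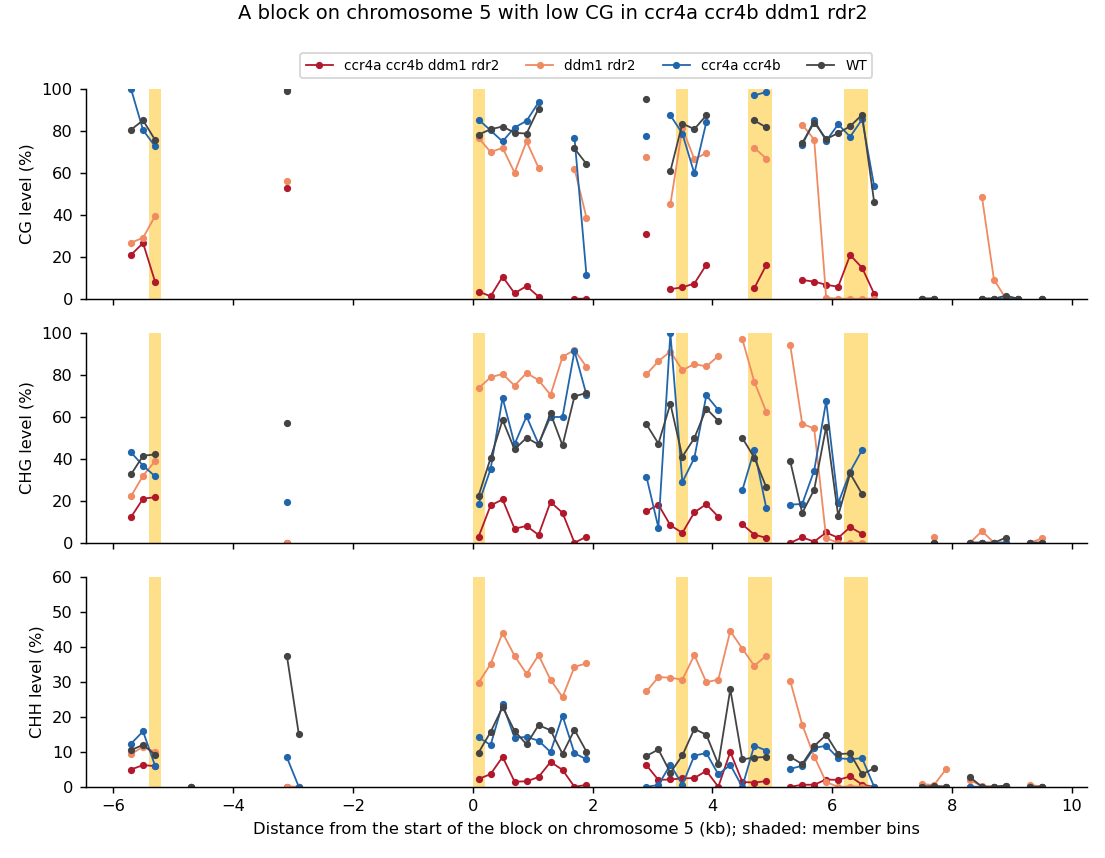
CG, CHG and CHH level (y axes, %) of 200 bp bins with at least 10 calls around the block on chromosome 5, by distance of the bin centre from its start (x axis, kb), for the 4 libraries, with the member bins shaded. Within the block CG averages 5.28% in the quadruple mutant (ccr4a ccr4b ddm1 rdr2 in the plot) and 68.5% in ddm1 rdr2, and CHG 10.2% and 80.8%.

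The bin chr3:18051401-18051600 was unmethylated in both libraries without CCR4A and CCR4B. Its CG was 0% of 166 calls in the quadruple mutant, 85.8% of 225 in ddm1 rdr2, 0% of 108 in ccr4a ccr4b and 84.7% of 262 in WT (the quadruple mutant against ddm1 rdr2, Fisher's exact test, adjusted p = 5.23e-75). A count of 0 among 108 calls allows a level of up to 2.78% in ccr4a ccr4b, and among 166 calls up to 1.81% in the quadruple mutant. CHG was 0%, 77.8%, 0% and 48.4% in the same order. The bin is alone in its run, and its sequence is the last of those printed above.

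The other 7 bins with lower CG were on chromosomes 1, 3, 4 and 5, and each was the only bin of its run called lower in CG. Among them, chr4:1740401-1740600 had 2.38% CG in the quadruple mutant, 48.6% in ddm1 rdr2, 87.3% in ccr4a ccr4b and 82.1% in WT. Its run, chr4:1740001-1740800, had the most negative difference among runs of 3 or more bins in both CG, at -20.1 points (-25.5 to -14.4), and CHG, at -20.6 (-25.4 to -15.6). Next in CG was chr1:19196801-19197400, at -17.9 points (-26.2 to -9.63), and next in CHG was chr3:4001-4600, at -11.4 (-15.6 to -7.06).

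The largest positive CG differences among such runs were 12.1 points (10.9 to 13.4) at chr3:1968601-1969400 and 12.0 (8.86 to 15.1) at chr3:7853401-7854000. At the first, CG was 49.5% in the quadruple mutant, 37.4% in ddm1 rdr2, 81.5% in ccr4a ccr4b and 84.9% in WT. In CHG they were 16.7 points (14.5 to 18.9) at chr3:5822001-5822600 and 15.3 (12.1 to 18.6) at chr4:10763601-10764400. At the first of these CHG was 25.9% in the quadruple mutant, 9.17% in ddm1 rdr2, 15.1% in ccr4a ccr4b and 23.9% in WT, while CG was 50.8% in the quadruple mutant and 50.2% in ddm1 rdr2. These extremes were picked from 275 runs for their size, so their intervals are too narrow as statements about a run chosen beforehand.

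The CHG rise with the smallest adjusted p, which depends on depth as well as size, was in a bin that was not called in CG. At chr5:25129001-25129200, CHG was 33.5% in the quadruple mutant, 4.62% in ddm1 rdr2, 1.19% in ccr4a ccr4b and 41.6% in WT, and it rose in the quadruple mutant relative to ddm1 rdr2 (Fisher's exact test, adjusted p = 1.07e-84). CG was high in every library, at 82.4%, 84.1%, 85.0% and 90.6% in the same order. Other called bins rose by more points, the most being chr4:1977601-1977800, with 78.6% CHG in the quadruple mutant, 30.3% in ddm1 rdr2, 21.9% in ccr4a ccr4b and 25.6% in WT. The longest readable stretch of the chromosome 5 bin is printed to show how CG and CHG sites alternate in it.
chr5:25129138-25129194: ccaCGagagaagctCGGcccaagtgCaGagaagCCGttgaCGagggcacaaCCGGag

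The ccr4a ccr4b library was close to WT in the bins. Mean CG was 79.6% in ccr4a ccr4b and 81.8% in WT, a difference of -2.23 points that was negative on 5 of 5 chromosomes. Mean CHG differed by 0.148 points, with 3 of 5 chromosomes positive, and mean CHH by -1.01 points, with 0 of 5 positive. The CHG sign was not stable: the difference was -0.723 with pooled calls, -2.11 with stricter WT thresholds and -0.933 without highly covered cytosines. The CHH difference was 0.0588 with the stricter thresholds. Since WT values at the edge of a threshold are biased by the choice, the bins were also chosen on the + strand of WT and read on the − strand, where the differences were -1.75 points in CG, 1.10 in CHG and -1.75 in CHH over 1779 bins. By size alone, CG was 40 points or more below WT in 50 bins, or 1.70%, against 1.28% of nuclear bins, and above it in 2, against 0.502%. CHG was 20 points or more above WT in 154 bins, against 1.25%, and below it in 191, against 1.19%, which was 5.23% and 6.48% of the bins. CHH was 10 points or more above WT in 34 bins, against 1.04%, and below it in 0, against 2.67%, which the rule on WT CHH forbids.

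In 8 bins CG was under 10% in ccr4a ccr4b. They include chr3:18051401-18051600, described above, and chr1:2420201-2420400, where CG was 69.0% in the quadruple mutant, 62.4% in ddm1 rdr2, 0% in ccr4a ccr4b and 66.1% in WT. CHG there was 38.2%, 23.7%, 0% and 22.8% in the same order. At chr1:19774801-19775000, CG was 0% in all 3 mutant libraries and 69.2% in WT, on 39 WT calls. These bins thus did not share 1 pattern over the libraries. Among runs of 3 or more bins, CG in ccr4a ccr4b was lowest at chr2:265001-266000, at 25.3% in the quadruple mutant, 16.1% in ddm1 rdr2, 54.2% in ccr4a ccr4b and 76.9% in WT.

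Bins just inside and just outside the CHG and CHH thresholds of the rule had like CG levels in ddm1 rdr2. The 186 bins with WT CHG from 20% to 22% had 24.7% CG in ddm1 rdr2, and the 172 bins with 18% to 20% that met the other criteria had 23.2%. The 566 bins with WT CHH from 9% to 10% had 19.1% CG in ddm1 rdr2, and the 689 bins with 10% to 11% had 19.4%. Near the CG threshold there were 12 bins on each side within 5 points, with 18.4% CG in ddm1 rdr2 inside and 8.24% outside.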

How the data were processed

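Leaf DNA of 4 genotypes was converted enzymatically and sequenced, from 100 ng of DNA with 13 PCR cycles per the labels' protocols. The authors deposited, per cytosine and strand, the counts of methylated and unmethylated calls in reports of Bismark 0.22.3, per the submitters' processing notes. The build is named ColCEN in the file names alone, and read filters and the treatment of duplicates and of reads that map to several places are not given in the sources used here. Each covered cytosine listed has at least 3 calls.

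Calls of cytosines that every library covered at least 4 times were summed in bins of 200 bp. A bin needs at least 4 such cytosines per context. The WT levels chose the members, and a level is the methylated share of calls of a bin. Intervals are 95% Wilson and Newcombe intervals. Calls rest on two-sided Fisher's exact tests of summed calls, adjusted by Benjamini-Hochberg over all nuclear bins tested, at 0.01 with a minimum size. Comparisons with WT use size alone, and sets of bins were set side by side without a test. A count of 0 allows a level of up to 3 calls of the total. The tests were tried on simulated independent calls, with 200 bins changed by 60 points in CG, 30 in CHG or 15 in CHH. Of the changed bins 79% to 99% were called, and 0 unchanged bins were. The simulation had no PCR copies and no spread between libraries, so it cannot show how these affect the calls. Python 3.11.15, numpy 2.4.6, pandas 2.3.3, numba 0.67.0, scipy 1.17.1 and matplotlib 3.10.9 were used.

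Named regions are the 3 runs with most bins and, among runs of at least 3 bins, the highest and lowest by the measure given in the text. The bins of the chromosome 5 block, those at chr3:18051401-18051600, chr1:2420201-2420400, chr1:19774801-19775000 and chr5:25129001-25129200, and the bounds of the chromosome ends were chosen after their values were seen. The members and lists were chosen with earlier results of these data known. Alternatives were pooled calls, stricter WT thresholds, a margin of 4 Mb, other call minimums, a coverage limit, bins of 100 bp, touching bins only, and a choice on 1 strand read on the other. Genes were not annotated.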

Additional observations from a re-analysis of the deposited data

Results flagged for a closer look

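Mean CG of the bins differed with the loss of CCR4A and CCR4B in opposite directions in the 2 backgrounds. It was 25.9% in the quadruple mutant, against 24.4% in ddm1 rdr2, a difference of 1.48 points, and 79.6% in ccr4a ccr4b, against 81.8% in WT, a difference of -2.23 points. The gap between the 2 differences was 3.71 points. The sign of each held on 5 of 5 chromosomes, and with 1 library per genotype the difference between the backgrounds was not tested. The bins were chosen by WT, which enters the second difference. The opposite signs were not particular to these bins. In the same order, the mean differences were 1.73 and -5.44 points in CG-only arm bins and 0.472 and -2.23 in CHH-rich arm bins. In the pericentromeric bins of the same WT thresholds they were 0.262 and -1.77.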

How the results depend on the processing

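No paired analysis was possible because each genotype has 1 library and the labels give no replicate numbers. Differences below are mean levels in points, in the order CG, CHG and CHH, first for the quadruple mutant minus ddm1 rdr2 (1.48, 0.218 and -0.265 as reported), then for ddm1 rdr2 minus WT (-57.4, -23.5 and -3.98) and last for ccr4a ccr4b minus WT (-2.23, 0.148 and -1.01). The cause of a change of value or sign was not tested.

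Pooled calls gave 1.15, 0.804 and -0.0684, then -63.9, -24.9 and -4.57, then -1.61, -0.723 and -1.53, so that the last CHG difference changed sign. With WT CG of at least 60%, CHG of at least 30% and CHH under 5%, 320 bins were left. They gave 1.74, -0.365 and -0.486, then -48.8, -18.8 and 0.154, then -3.55, -2.11 and 0.0588, with both the first and last CHG differences and both CHH differences from WT changed in sign. Choosing on the + strand and reading on the − strand gave 1.56, 0.631 and -0.156, then -60.1, -25.7 and -6.65, then -1.75, 1.10 and -1.75. The CHH rule held only on the strand of choice there, where WT CHH was 6.82%, against 9.55% on the other.

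A minimum of 10 calls gave CHG and CHH differences of 0.511 and -0.189 for the quadruple mutant minus ddm1 rdr2, then -60.1, -24.9 and -4.48, then -1.51, 0.660 and -1.08. Between the quadruple mutant and ddm1 rdr2 it called 5 bins lower in CG, 27 higher and 14 lower in CHG (34 and 40 as reported), 0 higher in CHH and 3 lower in CHH. Between the quadruple mutant and ccr4a ccr4b it called 1 higher in CG, 49 higher in CHG, 23 higher in CHH and 91 lower in CHH. It left 2122 bins, and the share of nuclear bins called at this setting was not computed.

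Without cytosines covered over 3 times the median, 1626 bins were left. They gave 1.32, -0.184 and -0.370, then -53.1, -22.1 and -3.26, then -3.16, -0.933 and -0.789, with the first and last CHG differences changed in sign. Then 1 bin was called higher in CG between the quadruple mutant and ddm1 rdr2, and between the quadruple mutant and ccr4a ccr4b 1090 were called lower in CG, 838 lower in CHG and 29 higher in CHH. Here too the nuclear share was not computed.

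Leaving out the chromosome ends, an alternative chosen after seeing the data, gave a CG difference of 1.63, then -55.6, -22.7 and -3.75, then -2.38, 0.0389 and -0.914. A margin of 4 Mb left 1001 bins. Bins of 100 bp gave 3977 members, a minimum of 1 call gave 3149, and joining touching bins only gave 1894 runs.

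The CG differences kept their sign in each of these settings that gave one, while the small CHG differences between the quadruple mutant and ddm1 rdr2 and between ccr4a ccr4b and WT did not. Depth limits single bins most in ccr4a ccr4b, where the thinnest bin held 65 calls. Regions with under 4 calls per cytosine in any library are not among the bins. With 1 library per genotype no spread between plants or libraries of a genotype is known.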

Other observations

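The 405 bins with at least 50% CG in ddm1 rdr2 lay in 323 runs on all 5 chromosomes, and 30.6% of them were over 8 Mb from the array. Their CG averaged 63.4% in the quadruple mutant, 80.9% in ccr4a ccr4b and 83.8% in WT, and their CHG 37.3%, 37.1% and 41.5%. Of these libraries, WT took part in the choice through the rule, and the others did not. The 948 bins under 10% CG in ddm1 rdr2 averaged 6.27% CG in the quadruple mutant, 77.6% in ccr4a ccr4b and 79.4% in WT.

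Bins outside the chromosome ends also differed by composition and by WT CHG. Bins with under 40% GC averaged 31.5% CG in ddm1 rdr2, those with 40% to 45% GC 26.3%, and those with more 23.1%, with median depths of 856, 1801 and 5026 calls. By WT CHG of 20% to 30%, 30% to 40% and above, CG in ddm1 rdr2 was 26.4%, 25.01% and 28.5%, and CHG was 9.40%, 12.1% and 21.4%.

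The 50 bins whose CG was at least 40 points below WT in ccr4a ccr4b were shallow there, with a median of 411.5 calls. Their CG averaged 35.2% in the quadruple mutant, 35.0% in ddm1 rdr2, 30.3% in ccr4a ccr4b and 83.6% in WT.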
